A study of Mus musculus with 64 samples.

Results

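Striatal RNA of 16 F2 mice was ranked by the level of Wdfy1, and the 5 mice with the highest level were compared with the 5 with the lowest, 10 of 16 mice in all. The mice were chosen by this measured level and not by a typed allele, so the Wdfy1 difference itself is described here without a test. All other genes were tested with genotype as a covariate. The rank also left 6 mice in the middle, which took no part in the contrast and are given as a description.

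All mice came from an intercross of the substrains C57BL/6NJ and C57BL/6J and were homozygous at 1 selected locus, which the labels do not name. N/N mice (8, of which 5 females and 3 males by the sample labels) carried the mutant C57BL/6NJ allele and were described by the submitters as binge-prone. J/J mice (8, also 5 females and 3 males) carried the wild-type C57BL/6J allele and were described as binge-resistant. Striatum punches were collected on day 24 at 69 to 100 days of age, after a 5 min elevated plus maze test of anxiety-like behaviour, and sequenced in 4 runs per mouse. The Wdfy1-high set held 3 N/N and 2 J/J mice, of which 2 were females and 3 males. The Wdfy1-low set held 1 N/N and 4 J/J mice, of which 3 were females and 2 males. Gene reads ranged between 27641165 and 34779856 per mouse in the Wdfy1-high set and between 31308201 and 42819739 in the Wdfy1-low set. Outside the selected locus an F2 mouse can carry either substrain allele on each copy of a chromosome, and no allele at Wdfy1 is given in the sources used here.

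Wdfy1 encodes a protein with WD repeats and a FYVE domain, a zinc finger that binds phosphatidylinositol 3-phosphate, the lipid that marks early endosomes. In innate immune signalling the protein is known as an adaptor that helps bring TRIF to the Toll-like receptors TLR3 and TLR4, upstream of NF-kB and the interferon regulatory factors. Its RNA is known as one of those whose level differs between C57BL/6 substrains. In an F2 a sequence variant that acts on a gene from nearby travels with the neighbouring genes on its chromosome, so the neighbours of Wdfy1 were examined first.

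On mm10, Wdfy1 (ENSMUSG00000073643.11) lies on the minus strand at chr1:79702262-79776143. The annotation gives it 14 transcripts, 9 of them protein-coding, and 7 of the protein-coding ones start at position 79761769. The neighbour Mrpl44, a protein of the large subunit of the mitochondrial ribosome, runs the other way on the plus strand at chr1:79776018-79781445. Its start lies 14.249 kb from the main start of Wdfy1, and 1 longer Wdfy1 transcript overlaps it by 126 bases. The sequence around the Mrpl44 start is shown because it lies where the annotated span of the gene that chose the mice meets its closest neighbour. It is the RefSeq GRCm38.p6 window chr1:79775768-79776067 on the plus strand, 250 bases before to 50 after the Mrpl44 start:
Mrpl44: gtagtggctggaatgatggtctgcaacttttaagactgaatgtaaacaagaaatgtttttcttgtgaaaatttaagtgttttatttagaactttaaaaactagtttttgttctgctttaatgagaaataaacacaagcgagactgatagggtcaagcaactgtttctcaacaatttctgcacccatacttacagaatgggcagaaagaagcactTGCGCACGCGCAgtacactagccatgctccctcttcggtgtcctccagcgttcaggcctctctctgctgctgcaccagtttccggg
The capitals mark the 1 match, with both strands searched, to the consensus motif of NRF1, a transcription factor of genes for mitochondrial proteins. The match begins at base 215 of the window, and 1.27% of all RefSeq promoter windows of 300 bases hold the motif.

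Wdfy1 fell into 3 separate levels over the 16 mice. In CPM (counts scaled to the total gene reads of the mouse), the Wdfy1-high mice stood at 72.1 (mouse 11, N/N), 70.2 (mouse 9, N/N), 68.0 (mouse 15, J/J), 67.8 (mouse 16, J/J) and 64.7 (mouse 12, N/N). The middle mice ranged between 48.0 and 51.9, with a median of 49.7. The Wdfy1-low mice stood at 46.3 (mouse 8, J/J), 30.6 (mouse 7, J/J), 30.4 (mouse 3, J/J), 30.4 (mouse 14, N/N) and 28.7 (mouse 1, J/J). Mice of both genotypes and both sexes thus stood at each end, and 1 mouse of the low set, mouse 8, stood near the middle mice and away from the other 4. The mean was 68.6 ± 2.78 CPM in the Wdfy1-high set and 33.3 ± 7.31 CPM in the Wdfy1-low set (SD, n = 5 each), a ratio of 2.06, and 49.6 ± 1.41 CPM in the 6 middle mice. At the borders of the rule, mouse 12 at 64.7 CPM was the last inside the high set and mouse 5 at 51.9 CPM the first outside. Mouse 8 at 46.3 CPM was the last inside the low set and mouse 4 at 48.0 CPM the first outside.

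The widest gaps in the ranking were 15.7 CPM between mice 8 and 7 and 12.8 CPM between mice 12 and 5, while no other gap between neighbouring ranks passed 3.17 CPM. These gaps split the mice into an upper level of 5, an intermediate level of 7 and a lower level of 4, a split made from the values themselves. The upper level averaged 68.6 CPM, the intermediate level 49.1 ± 1.78 CPM (SD, n = 7) and the lower level 30.0 ± 0.898 CPM (SD, n = 4). The midpoint of the upper and lower means was 49.3 CPM, close to the mean of the intermediate mice. Within a level the mice varied little, with coefficients of variation of 4.06%, 3.63% and 2.99%. The intermediate level held 4 N/N and 3 J/J mice and the lower level 1 N/N and 3 J/J mice.

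Counting error was small beside these gaps. Each mouse had between 951 and 2462 Wdfy1 reads, and the exact 95% Poisson intervals, which cover counting error only, ran between 61.9 and 75.2 CPM in the upper, 44.1 and 54.5 CPM in the intermediate and 27.1 and 32.4 CPM in the lower level. The 4 runs resequenced the same libraries whose summed counts gave the levels, so they show technical spread only, and the levels did not overlap in any of the 4. In run L001_1, for example, the lowest upper mouse had 60.8 CPM, the intermediate mice 43.3 to 49.3 CPM and the highest lower mouse 32.8 CPM. Counts from bulk tissue do not tell fewer expressing cells and less RNA per cell apart.

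**Figure D1:**
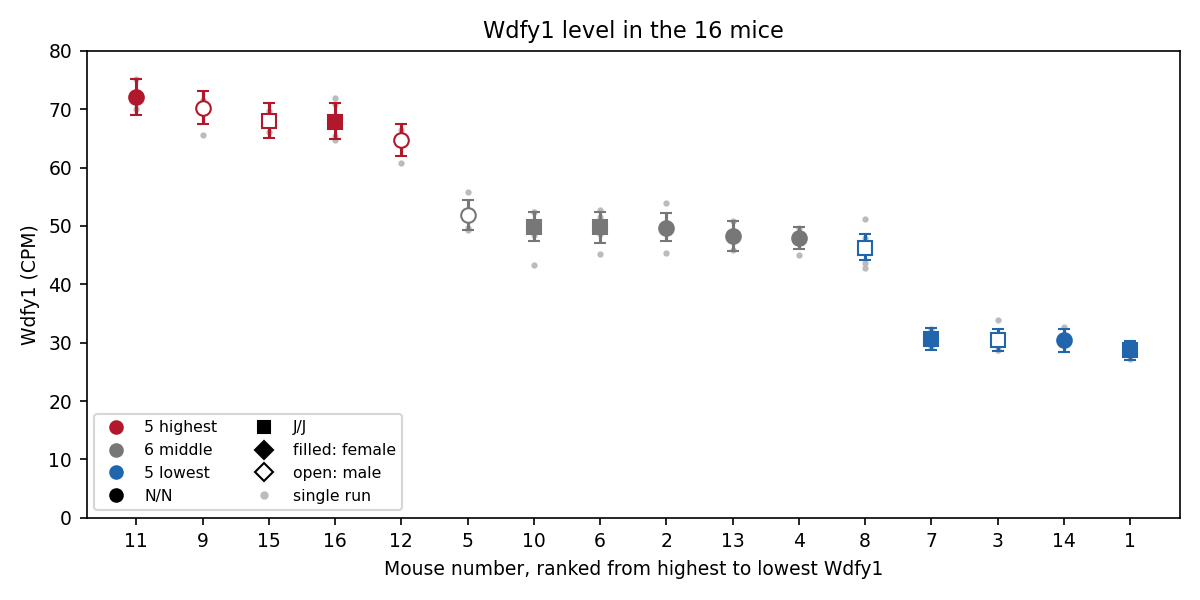
Wdfy1 level in CPM for each of the 16 mice, ranked from highest to lowest, with exact 95% Poisson intervals as bars and single sequencing runs as small grey points. Colour gives the set, circles are N/N and squares J/J, and filled symbols are females and open symbols males. The 5 highest mice sit between 64.7 and 72.1, mouse 8 sits at 46.3 beside the middle mice, and the other 4 of the low set sit between 28.7 and 30.6.

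No tested gene close to Wdfy1 had sets that stood apart, whereas those of Wdfy1 stand apart by the ranking. Within 2 Mb on either side 12 genes were tested, and none passed an adjusted p of 0.05 in edgeR's quasi-likelihood test with Benjamini-Hochberg adjustment over all genes, against 0% of all 16112 tested genes. At an unadjusted p under 0.05 the count within 2 Mb was also 0, against 5.49% of all genes. In none of the 12 did the Wdfy1-high and Wdfy1-low mice fail to overlap, against 0.943% of all genes. The 95% intervals of all 12 folds lay below the 2.06-fold ratio of Wdfy1, as they did for 97% of all genes. That ratio is a plain ratio of means widened by the ranking, while the folds are adjusted for genotype, so it is a description only. The intervals of 11 of the 12 lay within 1.5-fold either way, against 82.3% of all genes. All fold changes below are those of the 5 Wdfy1-high over the 5 Wdfy1-low mice, adjusted for genotype, so they can differ in sign from the plain means.

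Mrpl44, the overlapping neighbour, had 17.8, 19.1, 18.7, 17.7 and 20.7 CPM in the Wdfy1-high mice, against 18.9, 17.7, 19.2, 19.6 and 18.1 CPM in the Wdfy1-low mice, in the order of the mice above. The sets overlapped almost fully, and the lowest values of both were equal to 3 digits. The log2 fold change was -0.05 (SE 0.06), with a 95% interval of the fold between 0.879 and 1.06. The printed promoter window therefore belongs to a gene whose RNA differed by less than its spread between mice.

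On the other side of Wdfy1, 30.3 kb away, lies Ap1s3, a small subunit of the clathrin adaptor complex AP-1. It had 25.3, 24.5, 26.0, 25.9 and 18.8 CPM in the Wdfy1-high mice, against 23.4, 23.9, 25.04, 20.6 and 24.2 CPM in the Wdfy1-low mice. The single low value of the high set, in mouse 12, was below every Wdfy1-low mouse, and the other 4 lay near or above the low set. The log2 fold change was 0.10 (SE 0.08), with a 95% interval of the fold between 0.947 and 1.21.

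Serpine2, a secreted inhibitor of thrombin and other serine proteases also called protease nexin-1, lies 18.1 kb from Wdfy1 beyond Mrpl44. It averaged 251 ± 20.6 CPM in the Wdfy1-high and 233 ± 9.87 CPM in the Wdfy1-low mice (SD, n = 5 each), with a log2 fold change of 0.02 (SE 0.05) and an interval of the fold between 0.934 and 1.09. Scg2, a granin of dense-core secretory vesicles 262 kb away, averaged 256 ± 30.5 CPM in the Wdfy1-high and 243 ± 9.93 CPM in the Wdfy1-low mice, with a log2 fold change of -0.0022 (SE 0.07). Cul3, the scaffold of a family of ubiquitin ligases 489 kb away, averaged 119 ± 4.52 CPM in the Wdfy1-high and 117 ± 5.71 CPM in the Wdfy1-low mice. For each of the 3 genes the difference was smaller than the spread within a set once genotype was in the model. The widest fold within 2 Mb was that of Kcne4, an accessory subunit of potassium channels read at a low level, with 1.37 ± 0.608 CPM in the Wdfy1-high and 1.22 ± 0.371 CPM in the Wdfy1-low mice and a log2 fold change of 0.44 (SE 0.25, unadjusted p = 0.0995, adjusted p = 0.826, edgeR).

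**Figure D2:**
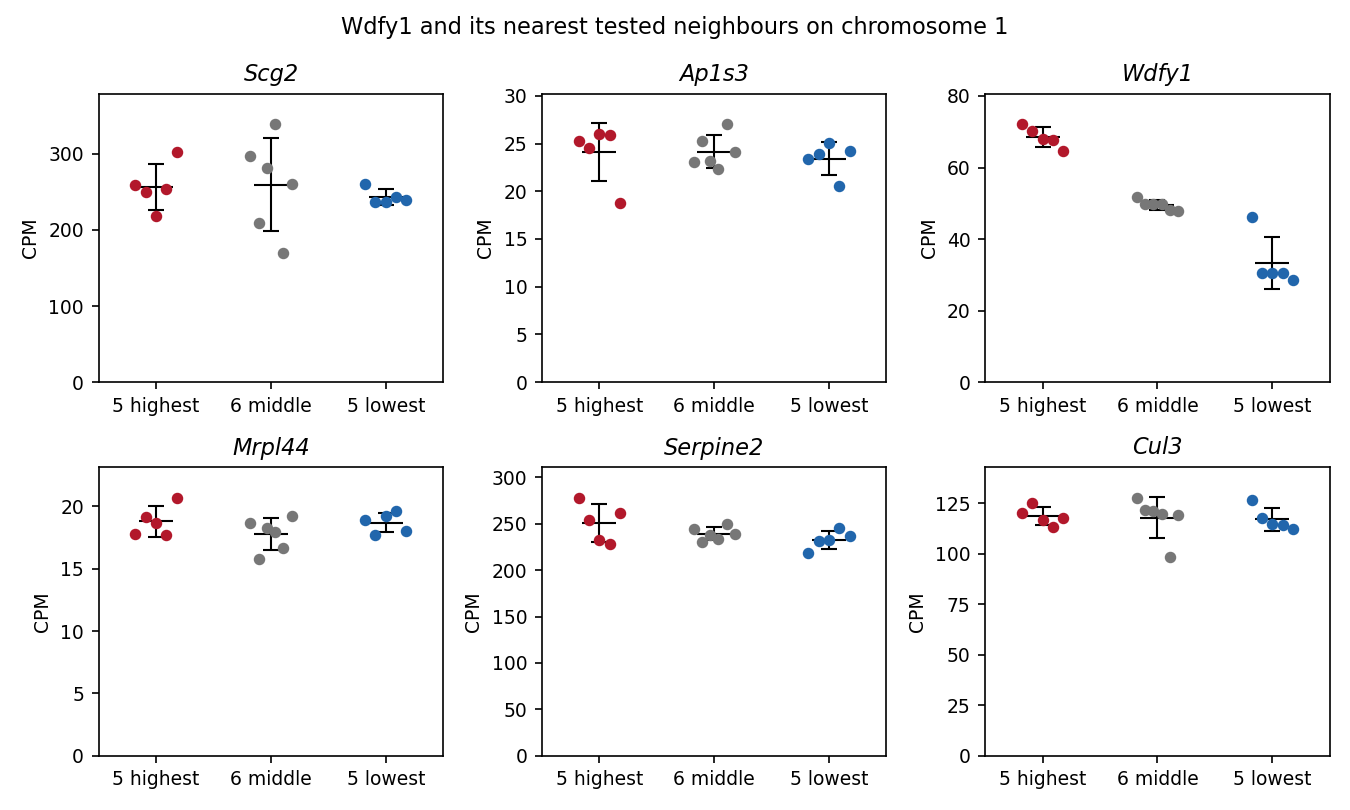
Levels in CPM of Wdfy1 and 5 tested genes around it on chromosome 1, with 1 point per mouse and black bars for the mean and SD of each set, for the 5 highest, 6 middle and 5 lowest Wdfy1 mice. The means of Wdfy1 are 68.6, 49.6 and 33.3, while Mrpl44, Ap1s3, Serpine2, Scg2 and Cul3 overlap in all 3 sets.

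Over a wider stretch of chromosome 1 no gene passed the adjusted threshold either. Within 10 Mb 138 genes were tested and 0 passed after adjustment. Unadjusted p fell under 0.05 for 7 of 138 (5.07%, 2 higher and 5 lower in the Wdfy1-high mice), close to the 5.49% over all genes (2.53% higher and 2.96% lower). Within 5 Mb there were 5 of 58 (8.62%, 1 higher and 4 lower) and within 20 Mb 14 of 237 (5.91%, 6 higher and 8 lower). The median log2 fold change was 0.03 within 2 Mb, -0.03 within 5 Mb, -0.03 within 10 Mb and 0.0024 within 20 Mb, against -0.0014 over all genes. No gene within 10 Mb had sets that did not overlap, and within 20 Mb there was 1, Kansl1l, a relative of a subunit of a histone acetylase complex, named after its values were seen. It averaged 18.3 CPM in the Wdfy1-high and 16.0 CPM in the Wdfy1-low mice (log2 fold change 0.19, SE 0.06, adjusted p = 0.826, edgeR).

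The genes of smallest p within 10 Mb mostly had lower values in the Wdfy1-high mice. Slc19a3, a thiamine transporter, had 4.82, 5.75, 4.63, 3.73 and 4.39 CPM in the Wdfy1-high mice, against 5.41, 6.02, 5.68, 5.69 and 6.75 CPM in the Wdfy1-low mice. Only mouse 9 of the high set reached into the range of the low set, and the log2 fold change was -0.42 (SE 0.13, unadjusted p = 0.0059, adjusted p = 0.826, edgeR). The middle mice averaged 6.11 CPM, above both sets, so the gene did not follow the order of Wdfy1. Log2 fold changes were -0.23 for the alpha-tubulin Tuba4a, -0.24 for Tmem198 and -0.20 for Ptprn, a protein of secretory granules. Tuba4a, Tmem198 and Ptprn lie near each other, at -4.48, -4.22 and -4.44 Mb from Wdfy1. Values were -0.16 for the purine synthesis enzyme Atic and -0.28 for Mreg. Each of these genes had an adjusted p of 0.826 in edgeR's test.

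Positive log2 fold changes among the 8 genes of smallest p within 10 Mb were 0.39 for 4933407L21Rik and 1.77 for Wdr69. 4933407L21Rik averaged 4.95 CPM in the Wdfy1-high and 4.07 CPM in the Wdfy1-low mice, and its fold change was 0.17 on the log2 scale without mouse 14. Mouse 14 was the only N/N mouse of the low set, so with genotype in the model a fit without it compares J/J mice only. When mouse 8 was left out of the low set, the sets of 273 of all genes (1.69%) did not overlap. Within 10 Mb this held for 1 of 138 genes, 4933407L21Rik. Its margin was narrow, with 4.46 CPM in mouse 15 of the high set and 4.45 CPM in mouse 3 of the low set. Wdr69 was near the limit of detection, with 54 reads over the 5 Wdfy1-high mice, 29 of them in mouse 12, and 10 reads over the 5 Wdfy1-low mice. Its log2 fold change had an SE of 0.80 and was 0.32 without mouse 14, a fit in which the N/N mouse 12 also left the contrast.

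**Figure D3:**
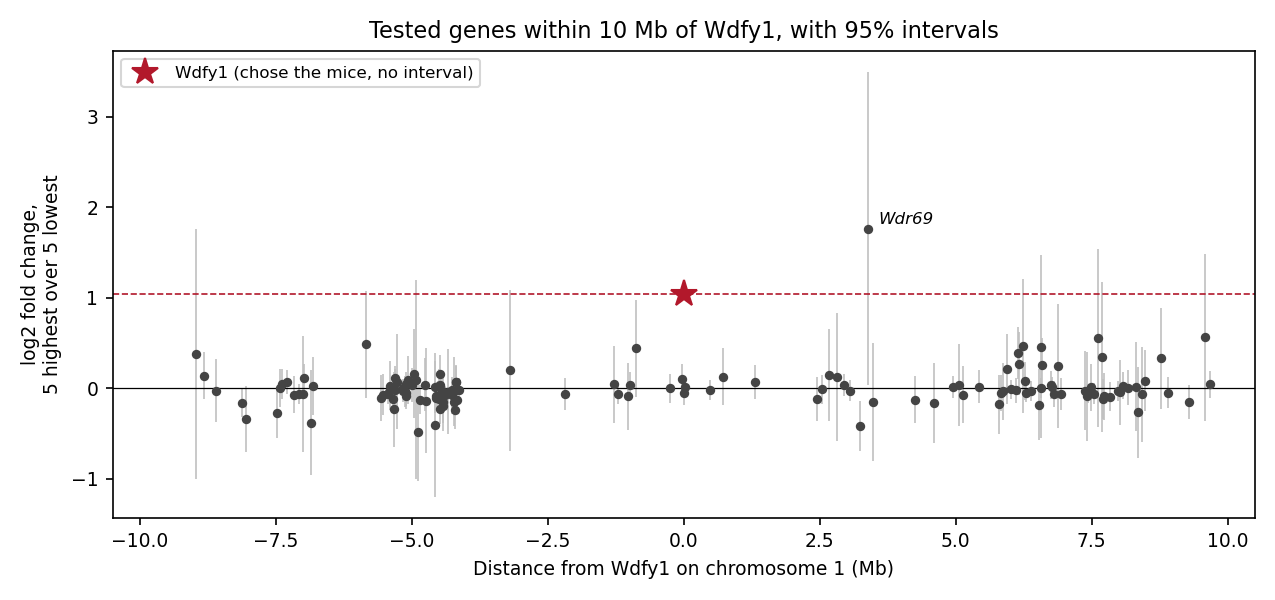
Log2 fold change of the 5 highest over the 5 lowest Wdfy1 mice, with 95% intervals, for the 138 tested genes within 10 Mb, against distance from Wdfy1 in Mb along chromosome 1. The dashed line and star give the ratio of means of Wdfy1 itself, with no interval because it chose the mice. The 12 genes within 2 Mb lie between -0.09 and 0.44, and the 1 gene above the dashed line, Wdr69, rests on 54 reads in the high set.

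Across the genome 0 of 16112 genes (0%) passed an adjusted p of 0.05 in edgeR, and the smallest adjusted p was 0.826. At an unadjusted p under 0.05 there were 885 genes (408 higher and 477 lower in the Wdfy1-high mice), where 806 would be counted with no effect at all. That count changed with the mice left out. It was 431 without mouse 16 and 2123 without mouse 15. It was 329 without mouse 14, the only N/N mouse of the low set. With genotype in the model, the N/N mice of the high set then no longer inform the contrast. It is left with J/J mice 15 and 16 against J/J mice 8, 7, 3 and 1, so this fall is not that of mouse 14 alone. Among other tools run on the same mice, limma-voom called 0 genes and DESeq2 called 1, Hsph1. Sets that did not overlap were found for 152 genes (93 or 0.577% higher and 59 or 0.366% lower), and 0 genes showed 3 steps without overlap over the high, middle and low sets.

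The size of the Wdfy1 difference is set by the ranking, which gives Wdfy1 the widest split these mice allow, so other genes are set beside it as a description only. Of 10283 genes with a mean of at least 10 CPM, 1 other had set means as far apart in either direction, the unannotated Gm3893 at a ratio of 0.440, and its sets overlapped (4.47 to 48.1 CPM in the Wdfy1-high and 22.1 to 91.7 CPM in the Wdfy1-low mice). Among genes at that level whose sets did not overlap, the widest ratio was 1.85 for Peg10, an imprinted gene derived from a retrotransposon, also named after its values were seen. Peg10 had 48.6, 25.7, 29.2, 37.0 and 63.2 CPM in the Wdfy1-high mice, against 19.9, 22.5, 18.3, 25.3 and 24.1 CPM in the Wdfy1-low mice. The lowest high mouse and the highest low mouse were nearly level, and the log2 fold change was 0.69 (SE 0.24, unadjusted p = 0.0184, adjusted p = 0.826, edgeR). The middle mice spread between 20.98 and 64.5 CPM and reached into the range of both sets.

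**Figure D4:**
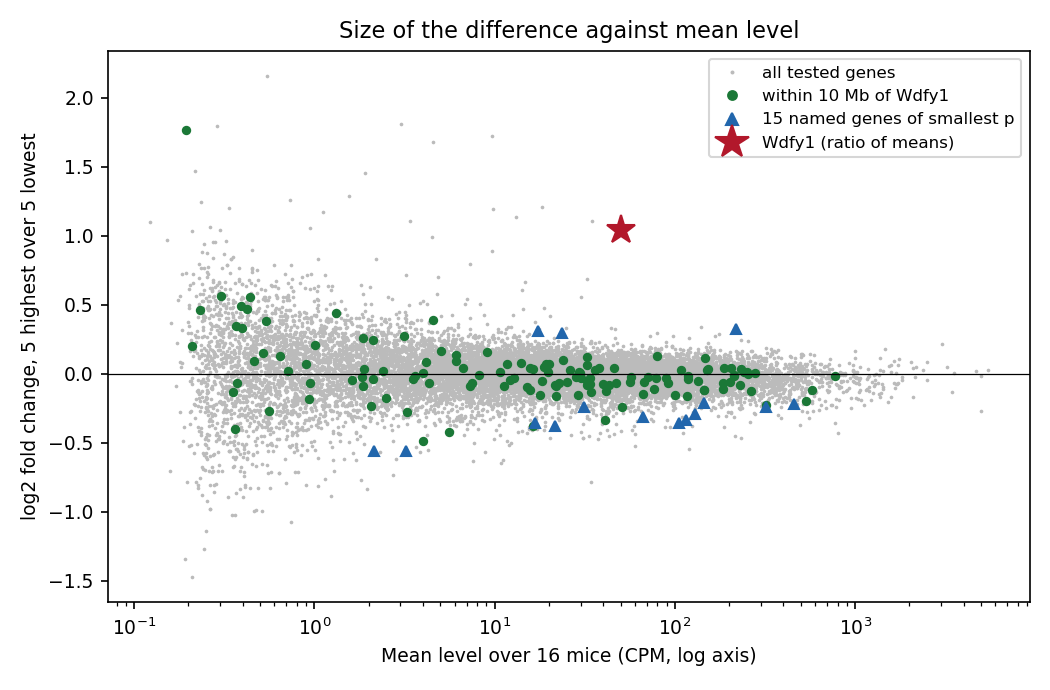
Log2 fold change of the 5 highest over the 5 lowest Wdfy1 mice against the mean level over 16 mice in CPM on a log axis, for all 16112 tested genes (grey), the genes within 10 Mb of Wdfy1 (green) and the 15 named genes of smallest p (blue triangles). The star gives the ratio of means of Wdfy1, 1.04 on the log2 scale at about 50 CPM, where the cloud of other genes is narrow.

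The 15 genes of smallest p had unadjusted p between 0.00025 and 0.0019 and an adjusted p of 0.826 in edgeR. Their log2 fold changes ran between -0.56 and 0.33, 12 of them below 0 and 3 above. In 10 of the 15 the sets did not overlap (7 lower and 3 higher), which the small p that chose them favours.

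Spon1, which encodes the extracellular matrix protein F-spondin, had 56.3, 59.0, 62.5, 58.4 and 67.6 CPM in the Wdfy1-high mice, against 77.5, 69.2, 73.6, 75.2 and 73.4 CPM in the Wdfy1-low mice. Every Wdfy1-high mouse was below every Wdfy1-low mouse, and the log2 fold change was -0.31 (SE 0.06). Il17ra, a receptor subunit for interleukin-17, had 13.2, 16.0, 15.5, 14.8 and 15.5 CPM in the Wdfy1-high mice, against 18.5, 18.8, 19.4, 19.7 and 17.6 CPM in the Wdfy1-low mice. These sets also stood apart (log2 fold change -0.36, SE 0.07). The middle mice ranged between 14.2 and 23.0 CPM, with a median of 15.7 CPM.

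Hsph1, a large heat shock protein that works with Hsp70 as a chaperone, had 307, 326, 289, 278 and 317 CPM in the Wdfy1-high mice, against 346, 320, 333, 364 and 328 CPM in the Wdfy1-low mice. Mouse 9 of the high set was above mouse 7 of the low set, so the sets overlapped slightly. Its log2 fold change was -0.24 (SE 0.05), with an adjusted p of 0.826 in edgeR and 0.0020 in DESeq2, and between 0.0020 and 1 over all alternatives. Other negative log2 fold changes were -0.36 for the transcription factor Etv5, -0.24 for Rab3ip, an exchange factor for Rab8, -0.29 for the Eph receptor Ephb6, -0.33 for the formin Fmnl1, -0.22 for the vesicle protein Rph3a and -0.21 for Gfod1. Tex40 and Trim16 had -0.56 each, at levels of 2.52 and 1.81 CPM in the Wdfy1-high mice, and D8Ertd82e had -0.38.

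Positive log2 fold changes among the 15 were those of Rab34, Ppp1r2 and Filip1. Rab34, a small GTPase known for a role in building cilia, had 20.1, 17.6, 18.8, 19.9 and 17.2 CPM in the Wdfy1-high mice, against 16.0, 16.5, 15.8, 13.2 and 16.1 CPM in the Wdfy1-low mice. Its sets did not overlap and its log2 fold change was 0.31 (SE 0.07). Ppp1r2, an inhibitor of protein phosphatase 1, averaged 241 CPM in the Wdfy1-high and 192 CPM in the Wdfy1-low mice (log2 fold change 0.33, SE 0.07). Filip1, which binds filamin A, averaged 24.4 CPM in the Wdfy1-high and 19.6 CPM in the Wdfy1-low mice (0.29, SE 0.07), but the middle mice averaged 26.3 CPM, above both.

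Genes of the pathways in which the Wdfy1 protein is placed were listed next. Of 33 tested genes for Wdfy1 relatives and for proteins that make, bind or remove phosphatidylinositol 3-phosphate on endosomes, 0 passed the adjusted threshold, 12 log2 fold changes were above 0 (49.5% of all genes had one above 0) and 21 below, and their median was -0.02. Their log2 fold changes lay between -0.19 and 0.10. The close relative Wdfy2 averaged 8.89 ± 0.562 CPM in the Wdfy1-high and 8.20 ± 0.545 CPM in the Wdfy1-low mice (log2 fold change 0.10, SE 0.08), and Wdfy3, which acts in selective autophagy, averaged 217 ± 8.91 and 229.8 ± 6.30 CPM in those sets (-0.07, SE 0.05). The 1 of 33 members with an unadjusted p under 0.05 (5.49% of all genes) was Hgs, a subunit of the complex that sorts ubiquitinated cargo on endosomes. Its log2 fold change was -0.19 (SE 0.08).

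Next were 28 tested genes of TLR3 and TLR4 signalling, a list that holds Myd88, Tirap, Irak1 and Irak4 beside the genes of the TRIF route. Of these 0 passed and 0 had an unadjusted p under 0.05, against 5.49% of all genes. Their log2 fold changes lay between -0.17 and 0.09, with a median of -0.03. Ticam1, which encodes TRIF, averaged 6.56 ± 0.471 CPM in the Wdfy1-high and 6.46 ± 0.773 CPM in the Wdfy1-low mice (SD, n = 5 each; log2 fold change 0.0086, SE 0.10). Tlr3 averaged 21.9 ± 1.42 CPM in the Wdfy1-high and 21.3 ± 1.82 CPM in the Wdfy1-low mice, and Tlr4 2.64 ± 0.324 and 2.70 ± 0.372 CPM in those sets. The smallest p of the list was that of Myd88, an adaptor that TLR4 uses beside TRIF and TLR3 does not use (log2 fold change -0.16, SE 0.09, unadjusted p = 0.0884, adjusted p = 0.826, edgeR). As a mean of log2 CPM, these 28 genes stood at 3.71 ± 0.0373 in the Wdfy1-high and 3.71 ± 0.0492 in the Wdfy1-low mice.

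Downstream of that pathway, 0 of 37 tested interferon-stimulated genes passed. Of their log2 fold changes 7 were above 0 (49.5% of all genes had one above 0) and 30 below, with a median of -0.09. Without mouse 1 the split was 17 above and 20 below, with a median of -0.02. The antiviral GTPase Mx1, at the smallest p of the list, averaged 0.261 ± 0.0554 CPM in the Wdfy1-high and 0.448 ± 0.128 CPM in the Wdfy1-low mice (log2 fold change -0.67, SE 0.31, unadjusted p = 0.0510, adjusted p = 0.826, edgeR). The level of this list was 1.92 ± 0.0984 in the Wdfy1-high and 1.99 ± 0.211 in the Wdfy1-low mice as mean log2 CPM, and the sets overlapped.

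Other genes known to differ between the substrains did not separate with Wdfy1. Nnt, a mitochondrial transhydrogenase, had 38.9, 28.0, 49.2, 35.0 and 24.3 CPM in the Wdfy1-high mice, against 31.6, 37.3, 34.7, 39.2 and 39.2 CPM in the Wdfy1-low mice (log2 fold change -0.0088, SE 0.18). Ide, an insulin-degrading protease, had 102, 53.3, 80.6, 52.0 and 76.6 CPM in the Wdfy1-high mice, against 80.3, 56.2, 54.5, 53.6 and 79.4 CPM in the Wdfy1-low mice (0.14, SE 0.25). Ide varied widely within each set, and Nnt more in the high than in the low set. The log2 fold changes of Gabra2, a subunit of the GABA-A receptor, and of Cyfip2, a subunit of the actin-regulating WAVE complex, were -0.12 each, and that of Crb1, a polarity gene on chromosome 1 at under 1 CPM, was -0.72 (SE 0.37).

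The punches carried the markers of striatum in both sets. Of 20 tested marker genes of medium spiny neurons, the main neurons of the striatum, 13 log2 fold changes were above 0 and 7 below. Above 0 lay 49.5% of all genes. The median of the 20 was 0.02, and 0 of them passed the adjusted threshold. The level of these markers as mean log2 CPM was 8.86 ± 0.266 in the Wdfy1-high and 8.67 ± 0.359 in the Wdfy1-low mice. Drd1a, the dopamine D1 receptor, averaged 242 CPM in the Wdfy1-high and 206 CPM in the Wdfy1-low mice, and Drd2 averaged 136 and 119.8 CPM in those sets. Adjusted for genotype, the log2 fold changes were 0.07 (SE 0.16) for Drd1a and -0.05 (SE 0.23) for Drd2. Myelin genes (24 tested) had a median log2 fold change of 0.04, astrocyte genes (14) -0.02 and microglial genes (14) 0.0083.

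The lists of cortical markers and of immediate early genes leaned one way between the sets, with no gene past the adjusted threshold. All 12 cortical glutamatergic markers had log2 fold changes below 0, where 49.5% of all genes had one above 0. Their median was -0.34, and 0 had an unadjusted p under 0.05, against 5.49% of all genes. Their level as mean log2 CPM ranged between 4.64 and 5.86 in the Wdfy1-high mice, with the lowest in mouse 11, and between 5.70 and 6.33 in the Wdfy1-low mice, with the highest in mouse 8. Slc17a7, the vesicular glutamate transporter of cortical neurons, had 255, 552, 876, 834.5 and 676.5 CPM in the Wdfy1-high mice, against 1214, 716, 1009, 824 and 714 CPM in the Wdfy1-low mice. All 17 immediate early genes, which neurons switch on after activity, had log2 fold changes below 0, with a median of -0.24. An unadjusted p under 0.05 was found for 1 of the 17, Egr3 at -0.24 (SE 0.10), a share near the 5.49% of all genes. Without mouse 14 the medians were -0.13 for the cortical list (10 of 12 below 0) and -0.07 for the immediate early genes (12 of 17 below 0). That fit compares J/J mice only, so the N/N mice of the high set, mouse 11 among them, also left the contrast. The part of this cortical difference in any other value given here was not tested. In a fit with the cortical level as a covariate 0 genes passed, which cannot speak to this because 0 passed without it as well.

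The 10 tested genes of choroid plexus and ependyma all had log2 fold changes above 0 (49.5% of all genes had one above 0), with a median of 0.39. Their level as mean log2 CPM ranged between -0.26 and 1.82 in the Wdfy1-high mice and between -0.13 and 0.29 in the Wdfy1-low mice. Ttr, the transthyretin of choroid plexus, had 22.7 CPM in mouse 11 and 15.03 CPM in mouse 12, against at most 1.55 CPM in the other 3 Wdfy1-high mice and at most 1.85 CPM in the Wdfy1-low mice. The high values of this list thus sat in 2 mice. Without mouse 14 the list split into 5 above 0 and 5 below, with a median of 0.10. That fit compares J/J mice only, so the N/N mice 11 and 12 also left the contrast. Its smallest p was that of Clic6 (log2 fold change 0.42, SE 0.19, unadjusted p = 0.0459, adjusted p = 0.826, edgeR). Of the 4 tested pituitary hormone genes 0 passed, and their median log2 fold change was 1.02 at levels of at most 2.54 CPM in the mean of the Wdfy1-high set. Single values were 1.29 (SE 1.16) for Gh, 1.68 (SE 1.43) for Prl, 0.76 (SE 0.36) for Tshb and -0.06 (SE 0.24) for Pomc. As mean log2 CPM the list ranged between -1.54 and 1.265 in the Wdfy1-high mice, with the highest in mouse 16. It ranged between -2.26 and 0.40 in the Wdfy1-low mice and reached 2.225 in the middle mice.

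Among vascular and other markers, Kdr, the main VEGF receptor of endothelial cells, had 13.01, 14.95, 16.1, 14.1 and 15.3 CPM in the Wdfy1-high mice, against 16.3, 17.0, 16.3, 23.1 and 19.6 CPM in the Wdfy1-low mice. Its sets did not overlap, although by a narrow margin, with a log2 fold change of -0.40 (SE 0.11, unadjusted p = 0.0029, adjusted p = 0.826, edgeR). It was the 1 of 14 endothelial genes with an unadjusted p under 0.05, a share near the 5.49% of all genes, and the median of the 14 was -0.10. The remaining lists had medians of -0.12 (14 interneuron genes), -0.02 (10 genes of oligodendrocyte precursors), -0.14 (14 genes of meninges and mural cells), 0.03 (9 thalamic genes), -0.09 (3 blood genes) and -0.03 (9 sex-linked genes). Each of these lists had 0 genes past the adjusted threshold. The 14 interneuron, 10 precursor and 9 thalamic genes each held 1 at an unadjusted p under 0.05 (5.49% of all genes). These were Npy (log2 fold change -0.20, SE 0.07), Lhfpl3 (0.22, SE 0.08) and Lef1 (-0.34, SE 0.13). The sex-linked median mixes genes higher in females, such as Kdm5c, with genes higher in males. As mean log2 CPM that list stood at 4.58 ± 1.30 in the Wdfy1-high and 4.025 ± 1.32 in the Wdfy1-low mice. Sex was not in the model.

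**Figure D5:**
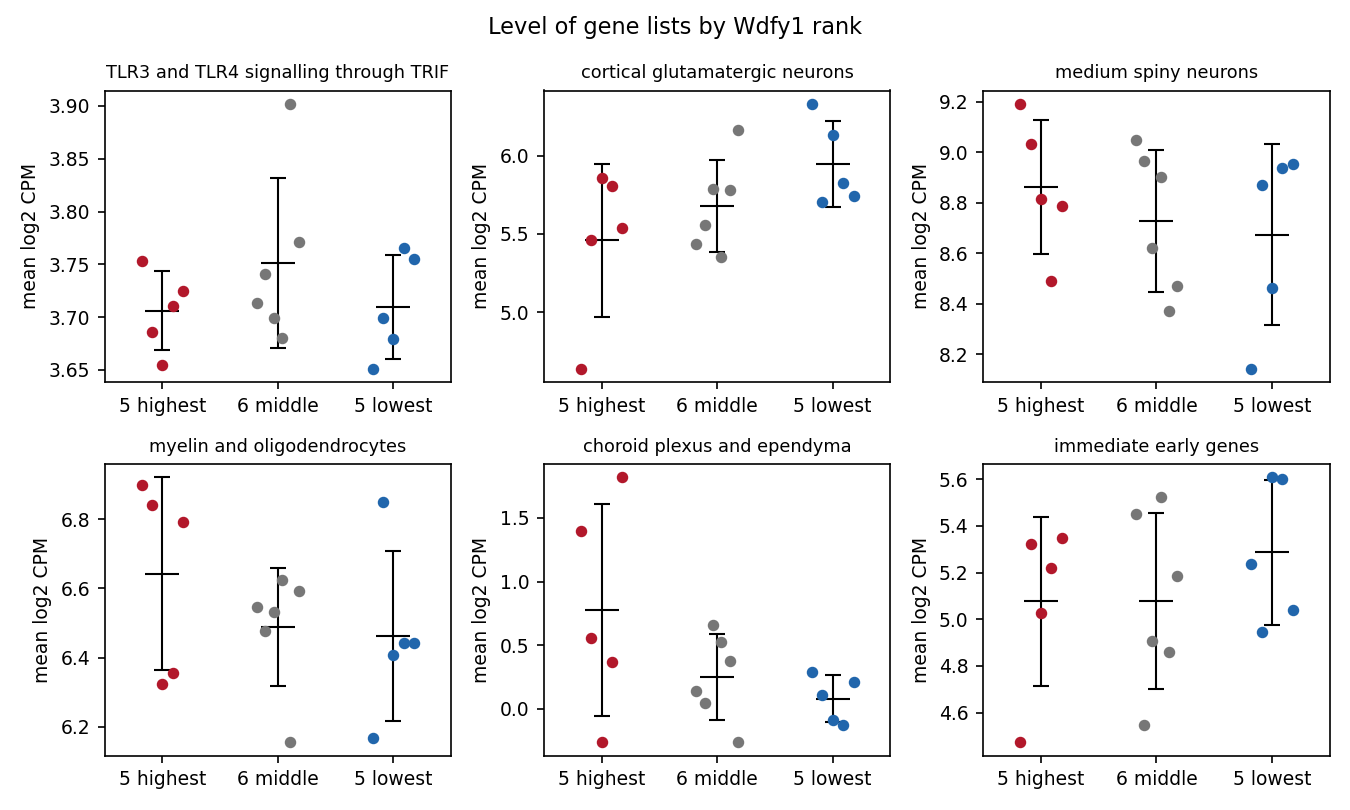
Mean log2 CPM of 6 gene lists in each mouse, with 1 point per mouse and black bars for the mean and SD, for the 5 highest, 6 middle and 5 lowest Wdfy1 mice. The vertical axes do not start at 0 and differ between panels. The levels of genes for TLR3 and TLR4 signalling overlap at 3.71 in both end sets, the cortical list is lowest in 1 mouse of the high set at 4.64, and the choroid plexus list is high in 2 mice of that set.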

How the data were processed

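The deposited files hold raw read counts per gene, 1 table for each of 16 mice and 4 runs. The authors used 50 bp single-end reads of stranded libraries. Per the submitters' processing notes, the tools were FastQC 0.11.3, TopHat2 2.1.0 with mm10, HTSeq 0.6.1p1, edgeR 3.8.6 and limma 3.22.7. Which annotation and strand setting HTSeq ran with is not given in the sources used here, and reads of Wdfy1 and Mrpl44 in their short overlap may not be told apart. The tables list 23420 genes. Summary rows, which name no gene, stayed out of library sizes and tests (19.95% of reads in no gene, 21.84% not unique, 0.78% ambiguous).

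Counts were summed over the runs of a mouse, which gave 27405386 to 51334152 gene reads, and divided by that total for CPM. Mice 10 and 11 shared a cage label. The 5 highest and 5 lowest mice by Wdfy1 CPM were compared with edgeR 4.0.16 in R 4.3.3 (TMM factors 0.969 to 1.02, robust quasi-likelihood F test, genotype as covariate, Benjamini-Hochberg at 0.05). Genes passed filterByExpr over the 4 genotype by sex groups of all 16 mice (minimum count 10, minimum total 15), and Wdfy1 was left out, which left 16112. The common biological coefficient of variation was 10.25%. Each standard error is the size of the log2 fold change over the square root of F. Log2 CPM uses a prior count of 2. The p-values of genes measure the spread between mice that were chosen on 1 of their genes. The test was tried on simulated counts with 200 changed genes.

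Gene positions (GENCODE M21, and RefSeq on GRCm38.p6, the assembly of mm10) were found for 99.7% of tested genes. Of the 4 nearest named neighbours, the promoter window of Mrpl44 is shown. Symbols Drd1, Hbb-bs, Ifi27 and Rbsn were matched to older symbols in the tables. The mice, the gene lists and the tests were chosen with earlier results of these data known. Named genes were picked by rule, and some are not printed above. They are the 15 of smallest p with an established name and the 8 of smallest p within 10 Mb of Wdfy1. With them are the 2 nearest tested genes on each side, the smallest p of each list and the known substrain genes. Other genes given with values, such as Drd1a, Drd2, Slc17a7 and Ttr, lie outside this rule. Alternatives were DESeq2 1.42.0, limma-voom (limma 3.58.1), scaling by RLE or by library size alone, 2 other filters, other covariates, other numbers of mice, a slope over 16 mice, a fit that was not robust, 1 run alone, and leaving out each mouse.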

Additional observations from a re-analysis of the deposited data

Results flagged for a closer look

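In each set of 5 mice a value was marked when its gap to the nearest other mouse was over 0.71 of the range of the set, a rule by which chance marks about 1 in 20 sets. It marked 7 of 102 sets. Of these 1 is for Wdfy1, which ranked and cut the sets, so the rate of 1 in 20 does not hold for it. Among the Wdfy1-low mice, mouse 8 had 46.3 CPM of Wdfy1 and the next mouse 30.6 CPM, and mouse 8 also had 260.4 CPM of Scg2 with the next at 243 CPM. Mouse 14, the only N/N mouse of the low set, had 13.2 CPM of Rab34 with the next mouse at 15.8 CPM, and 2.62 CPM of 4933407L21Rik with the next at 4.18 CPM. Among the Wdfy1-high mice, mouse 12 had 18.8 CPM of Ap1s3 with the next mouse at 24.5 CPM, mouse 11 had 94.7 CPM of the cortical marker Nptx1 with the next at 194 CPM, and mouse 15 had 68.3 CPM of Vtn, a pericyte gene, with the next at 56.9 CPM. What set these mice apart was not tested.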

How the results depend on the processing

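The count of genes past the adjusted threshold was 0 in each of the 26 alternatives except DESeq2, where it was 1 (Hsph1), and the count near Wdfy1 was 0 in all of them. The count at an unadjusted p under 0.05 was 1560 with 6 highest against 6 lowest mice and 2237 with 8 against 8. It ranged between 329 and 2123 when single mice were left out. In the other 14 alternatives it lay between 661 (cortical covariate) and 1289 (sex covariate). The count of 329 was that without mouse 14, where only J/J mice informed the contrast. Of 50 named genes, 43 kept their sign in every alternative run. Scg2 turned to 0.025 (library size only), 0.000575 (no filter), 0.0553 (no covariate), 0.0208 (cortical covariate), 0.0216 (6 against 6), 0.0475 (8 against 8) and 0.0318 (slope). Nnt turned to 0.0168 (library size only), 0.0582 (sex covariate), 0.00335 (myelin covariate), 0.00937 (4 against 4), 0.0921 (6 against 6) and 0.0453 (8 against 8). Mrpl44 turned to 0.00179 (cortical covariate) and 0.0278 (1 run), Serpine2 to -0.0257 (cortical covariate) and Myd88 to 0.12 (1 run). Ide turned to -0.00539 (cortical covariate), -0.16 (6 against 6) and -0.0951 (8 against 8), and Gabra2 to 0.0551 (no covariate) and 0.0884 (8 against 8). With single mice left out, log2 fold changes ranged between -0.0628 and 0.0624 for Scg2, -0.237 and 0.228 for Nnt, -0.0383 and 0.359 for Ide and -0.00896 and 0.0401 for Serpine2. The cause was not tested. No paired analysis was possible because each mouse number occurs in 1 set only. Depth limits Wdr69 most among the named genes, at 10 reads over the 5 Wdfy1-low mice.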
